A study of Mus musculus with 2 samples.

Results

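The RUNX and ETS factor genes described here were Runx1, Runx2 and Runx3, their partner Cbfb, and the ETS genes Ets1, Fli1, Elf1, Etv6 and Gabpa, 9 genes of the 21829 protein-coding genes measured. ATAC-seq, in which a transposase cuts and tags open DNA, was done on mouse regulatory T cells, in 1 group of 2 libraries, called biological replicates 1 and 2 in the labels. Both came from primary cells of the strain C57BL/6NJ, with no genotype, agent or known age in the labels. Their donor identifier is shared, so it is not known that they are from separate animals, and their spread may be technical. A linked protocol on CD4 T cell differentiation was not read. The names of the listed regions include 72 hours and the terms ASTARR and insert, and it was not established from these what the libraries were made for. Each library had its own list of accessible regions on mm10, with 68903 regions in replicate 1 and 78262 in replicate 2. The regions taken were those overlapping the gene body or 10 kb to either side, a stretch called the locus, which gave 157 regions in replicate 1 and 171 in replicate 2. No second condition was measured, so the values are described beside those of all protein-coding genes and no test was made. The sequencing depth is unknown, and a weak region in few cells cannot be told apart from a weakly open one in many.

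RUNX proteins bind DNA through the Runt domain, and the CBF-beta protein encoded by Cbfb strengthens that binding without touching DNA itself. Each RUNX gene has a distal and a proximal promoter, which give proteins with different first residues. ETS proteins bind a GGAA core. In regulatory T cells RUNX1 and CBF-beta are known to work with Foxp3, and ETS1 is known to bind the Foxp3 gene. As a check of the labelled cell type, all 5 regulatory T cell markers (Foxp3, Il2ra, Ctla4, Ikzf2 and Tnfrsf18) and all 5 T cell markers had a promoter region in both replicates, as did 63.3% of protein-coding genes. Markers of other cells had one at Pax5 among 4 B cell genes, Spi1 among 4 myeloid genes, Gata1 and Klf1 among 3 erythroid and megakaryocyte genes, Cd8b1 of 2 cytotoxic genes and Kdr among 3 endothelial genes. The part of such cells in the values below was not tested.

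The sequences at the RUNX promoters are shown first, to set the distal and proximal starts of each gene side by side. Each is read 5′ to 3′ along the gene from the GRCm38 genome (mm10). Each run lies within 100 bp of the region's summit in replicate 1 and outside annotated exons. At the Runx2 distal start, where neither replicate had a region, the 250 bases before the start are given. Capitals mark matches to the RUNX letters TGTGGT or TGCGGT and the ETS letters GGAAGT or CCGGAA on either strand. The window at the Runx2 proximal promoter lay wholly in exons and is not printed.
Runx1 distal, chr16:92826150-92826222, strand -: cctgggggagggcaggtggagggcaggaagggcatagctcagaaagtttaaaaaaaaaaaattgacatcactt
Runx1 proximal, chr16:92697329-92697504, strand -: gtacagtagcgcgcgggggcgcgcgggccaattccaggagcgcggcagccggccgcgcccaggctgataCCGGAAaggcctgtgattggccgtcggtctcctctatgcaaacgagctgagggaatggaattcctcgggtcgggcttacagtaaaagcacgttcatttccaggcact
Runx2 distal, no region, chr17:44814798-44815047, strand -: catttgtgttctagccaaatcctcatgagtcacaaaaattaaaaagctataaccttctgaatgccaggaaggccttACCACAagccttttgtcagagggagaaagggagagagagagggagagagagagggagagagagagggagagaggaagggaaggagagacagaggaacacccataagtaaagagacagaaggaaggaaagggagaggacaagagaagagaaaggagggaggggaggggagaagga
Runx3 distal, chr4:135120393-135120593, strand +: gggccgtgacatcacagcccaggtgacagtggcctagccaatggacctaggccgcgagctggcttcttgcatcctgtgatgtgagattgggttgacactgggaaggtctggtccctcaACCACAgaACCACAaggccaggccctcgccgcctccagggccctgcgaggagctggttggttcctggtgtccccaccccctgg
Runx3 proximal, chr4:135152420-135152495, strand +: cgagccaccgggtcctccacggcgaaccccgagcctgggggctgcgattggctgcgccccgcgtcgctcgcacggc
The Runx1 proximal run had 18 CpG dinucleotides and a GC content of 62.5%, and the Runx3 proximal run had 12 CpG in 76 bases at 77.6% GC. The Runx1 distal and Runx2 distal runs held 0 CpG, at 46.6% and 48.4% GC. The Runx3 distal run differed from them, with 6 CpG at 63.7% GC, a GC content above that of the Runx1 proximal run. The Runx3 distal run also held a pair of RUNX matches 2 bases apart. A match is a description of letters and not a bound site.

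In replicate 1, 146 of 157 regions (93.0%) were overlapped by a region of replicate 2, against 93.2% of all regions. In replicate 2, 146 of 171 (85.4%) were overlapped, against 81.6%. Stretches holding a region of both replicates are called replicated regions, and the 9 loci held 145. Their summits were a median of 28 bp apart. Of the regions, 123 in replicate 1 and 135 in replicate 2 had their summit in an intron, and 3 and 2 in an exon. The median width was 716 bp and 736 bp, against 632 bp and 635 bp for all regions. The signal that the authors gave each region, whose scale is not stated, had a median of 5.50 and 5.01 at these loci, against 6.57 and 6.06 for all regions. The median -log10 q, the authors' measure of how unlikely a region was by their own model, was 21.5 and 29.5 against 21.8 and 25.6.

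All 9 genes had a region in both replicates within 1 kb of a coding start, against 63.3% of protein-coding genes. Replicated regions numbered 27 at Ets1, 26 at Runx1, 22 at Etv6, 20 at Runx2, 20 at Fli1, 18 at Elf1, 7 at Runx3, 4 at Cbfb and 1 at Gabpa, a median of 20 against 2 over all genes. Each library's own count gave the same order from Ets1 (29 and 30) through Runx1 (27 and 30), Etv6 (25 and 27), Runx2 (23 and 25), Fli1 (20 and 24) and Elf1 (19 and 22), with Ets1 and Runx1 level in replicate 2, and adjoining genes in this order overlapped or touched between libraries. Runx3 (9 and 8), Cbfb (4 and 4) and Gabpa (1 and 1) were apart from them and from each other. Because long loci hold more regions, each count was divided by the mean over genes of like locus length, in 10 classes. The ratio exceeded 1 at 8 of 9 genes, against 45.9% of all genes, with a median of 2.70 against 0.849. Among the marker lists, the median was 3.41 for regulatory T cells and 2.39 for T cells, with 5 of 5 genes above 1 in each. In the marker lists of other cells the median ran from 0.404 to 1.25.

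The ratio was 3.64 at Ets1, 3.59 at Elf1 and 3.50 at Runx1. Elf1, with a locus of 121 kb, was at the 99.5th percentile of its length class, Ets1 at the 97.8th and Runx1 at the 97.6th. The ratio itself was 2.97 at Etv6, 2.70 at both Runx2 and Fli1, and 1.98 at Runx3. Ets1, Runx1, Etv6, Runx2 and Fli1 were in the same length class, with a mean of 7.42, so among them the ratio repeats the count. With 100 length classes the ratio was 4.03 at Ets1, 3.28 at Runx1, 3.13 at Elf1 and 2.99 at Fli1. In that setting Etv6 had 2.775, Runx2 2.37 and Runx3 1.77. Cbfb had a ratio of 1.13, and this fell below 1 in some settings, to 0.925 with replicate 2 alone and 0.986 with 100 length classes. Gabpa had a ratio of 0.341. The counts rest on weak regions too: with the 50000 entries of highest signal in each list, replicated regions numbered 86 in place of 145, and the order of the genes changed. Etv6 and Runx2 then had 16 each, Runx1 13, Fli1 12, Ets1 10, Elf1 8, Runx3 6, Cbfb 4 and Gabpa 1, so that Ets1 was no longer first.

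**Figure D1:**
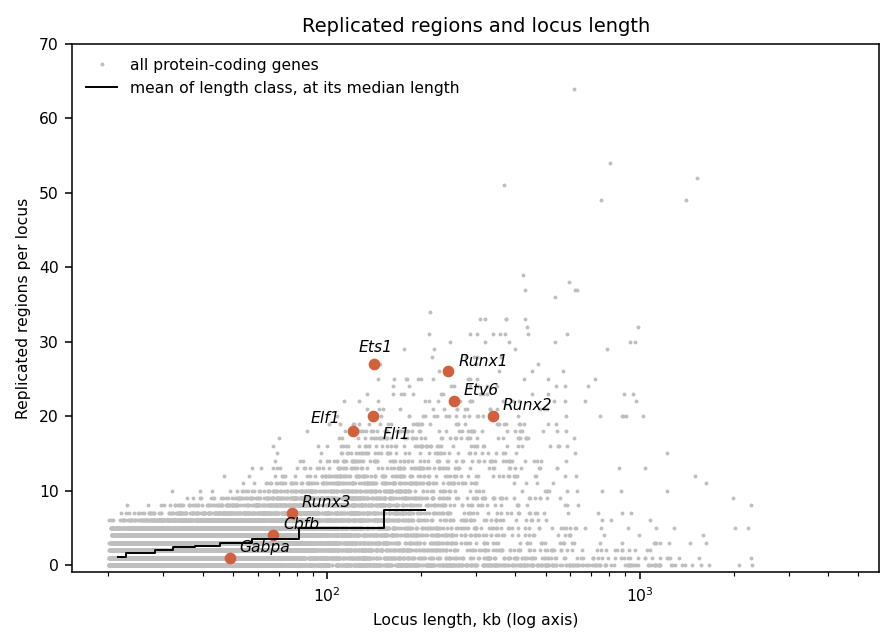
Replicated regions per locus (vertical axis) against locus length in kb on a log axis, for all protein-coding genes (grey), the 9 RUNX and ETS genes (orange) and the mean of each length class (black line). Ets1 with 27 and Runx1 with 26 lie far above the line, and Gabpa with 1 lies below it.

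**Figure D2:**
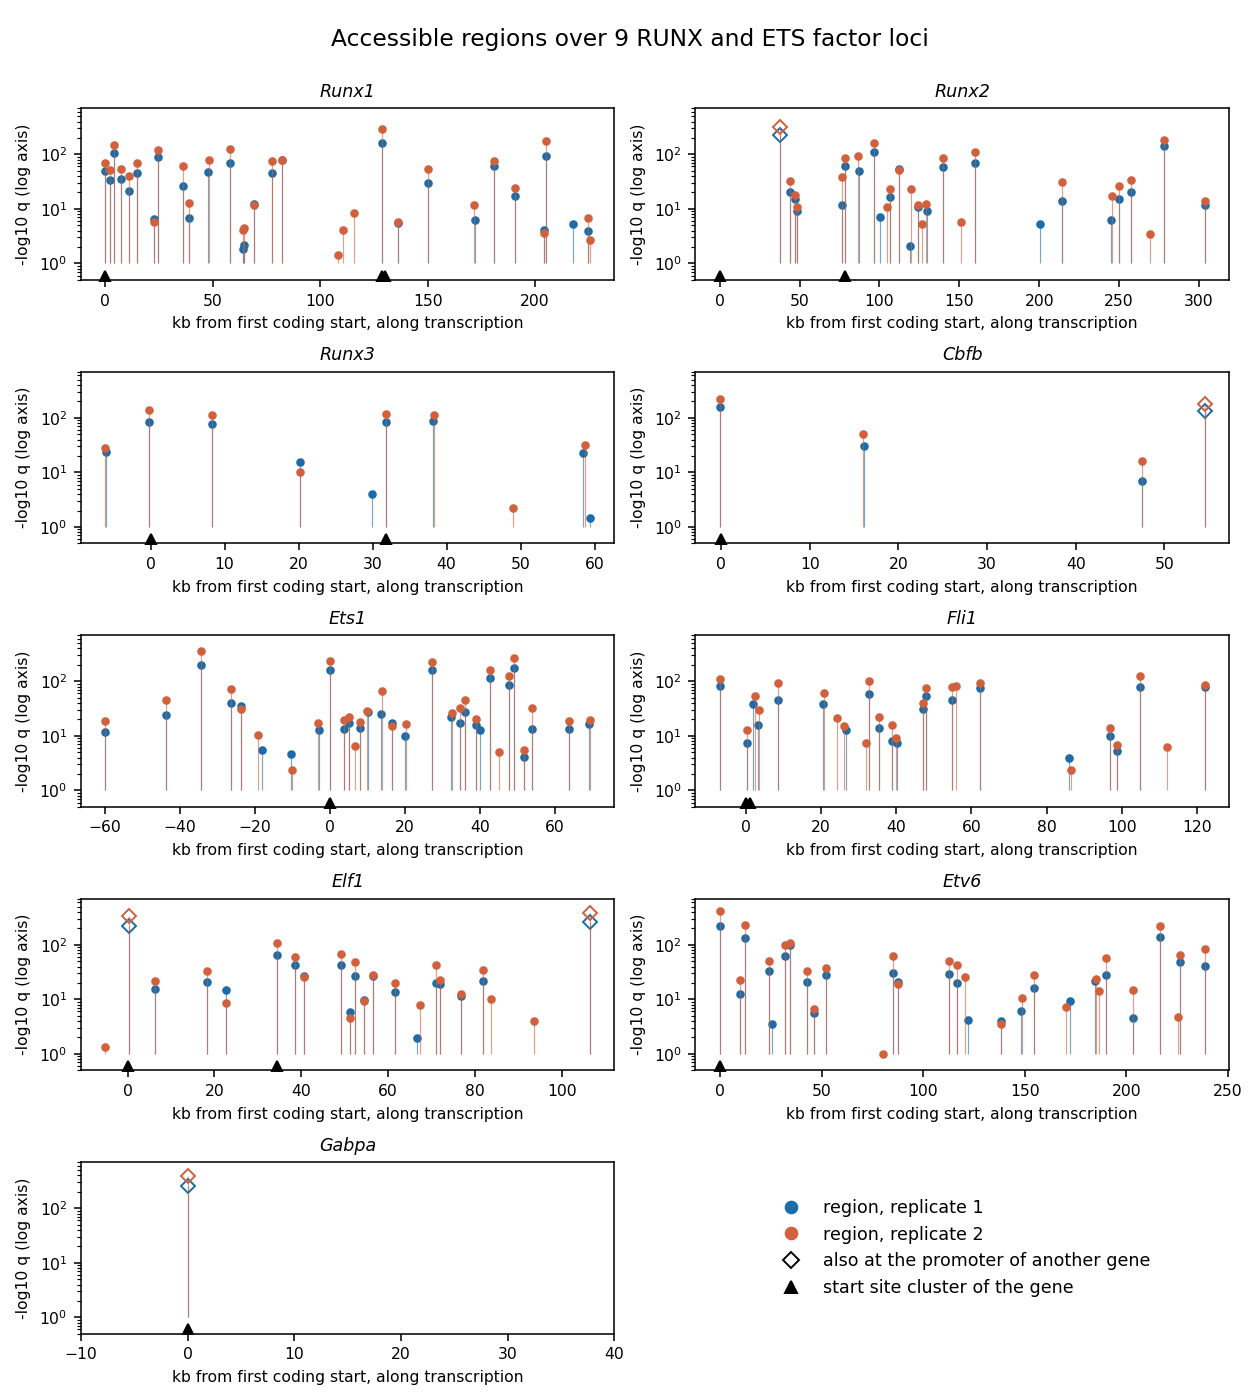
Every accessible region over the 9 loci, by kb from the first coding start along transcription and by -log10 q on a log axis, with replicate 1 in blue and replicate 2 in orange. Triangles mark the gene's start site clusters and open diamonds mark regions at another gene's promoter; the Runx2 triangle at 0 has no region above it.

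Of the 6 RUNX promoters, 5 had a region in both replicates and the Runx2 distal promoter had none in either. The order of the 5 by signal was the same in both libraries, except between the Runx2 and Runx3 proximal promoters. The Runx3 distal promoter had a signal of 13.0 and 14.6 in replicates 1 and 2, at the 88.8th and 94.5th percentile of its list. The Runx1 proximal promoter followed with 8.74 and 9.80. The Runx2 proximal promoter had 6.92 and 6.50 and the Runx3 proximal promoter 6.53 and 6.55. The Runx1 distal promoter was lowest of the 5, with 4.07 and 3.89, at the 22.8th and 25.3rd percentile.

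By -log10 q the order was different. The Runx1 proximal promoter led with 162 and 295, above the Runx3 distal promoter with 84.1 and 140 and the Runx3 proximal promoter with 84.3 and 117. The Runx2 proximal promoter had 60.5 and 84.1. The Runx1 distal promoter had 49.3 and 68.6, again the lowest of the RUNX promoters with a region. Within its list this is at the 70.3rd and 72.5th percentile. Beside all regions it was thus weak by signal and not by -log10 q. At Runx3 the distal promoter was ahead by signal in both libraries, and by -log10 q in replicate 2 and not in replicate 1. The Runx1 proximal promoter was ahead of the distal one by both values in both libraries.

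**Figure D3:**
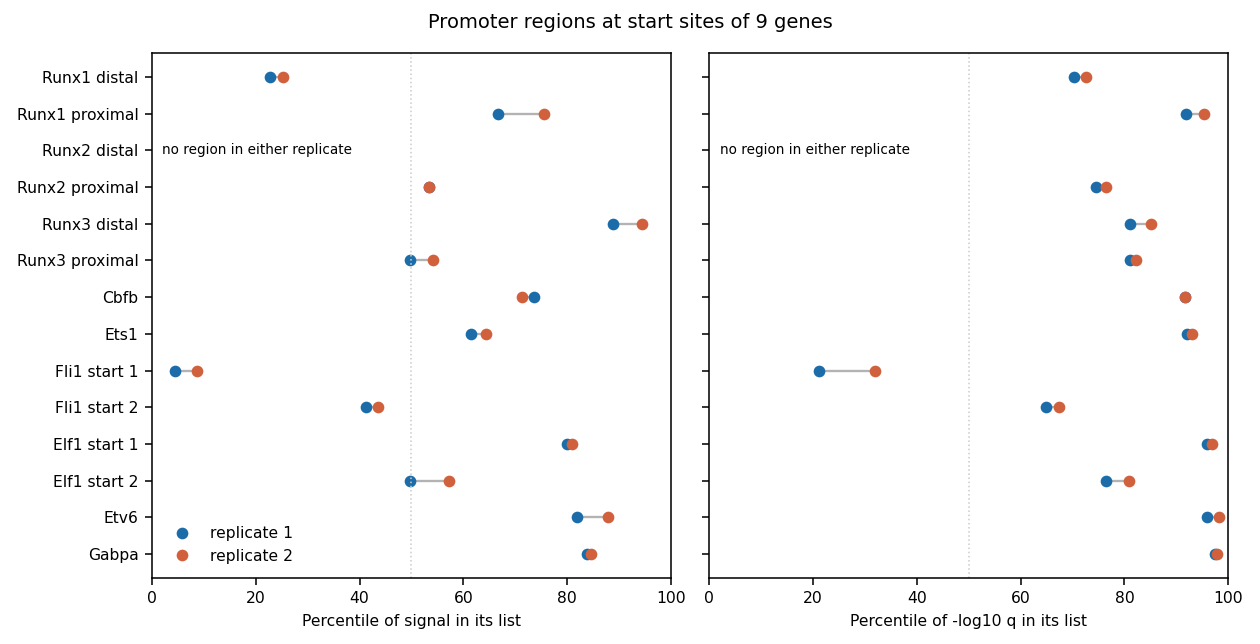
Percentile of the region at each start site of the 9 genes within its own list, by signal (left) and by -log10 q (right), with replicate 1 in blue and replicate 2 in orange. The Runx3 distal promoter is at the 88.8th and 94.5th percentile of signal, the first start of Fli1 has the lowest points in both panels, and the Runx2 distal promoter has no point.

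Open and closed starts are known to differ in CpG content, so the RUNX promoters were set beside all start site clusters, groups of coding starts within 1 kb of each other. Over the 300 bases around the first start, the CpG ratio of observed to expected was 1.01 at the Runx1 proximal start and 0.973 at the Runx3 proximal start. It was 0.395 at the Runx2 proximal start, 0.262 at the Runx3 distal start, 0.187 at the Runx1 distal start and 0 at the Runx2 distal start. Clusters with a region in both replicates had a median of 0.714 over all genes and clusters with none in either had 0.202. Among the 9 genes, 5 clusters were under 0.4, and 4 of these had a region in both replicates, against 18.9% of such clusters over all genes. These 4 were the Runx1 and Runx3 distal starts, the Runx2 proximal start and the second start of Elf1, at 0.202. Over all 15 clusters of the 9 genes, 14 had a region in both replicates. The 5 genes with more than 1 cluster had 11, of which 10 had one, against 38.8% of clusters of such genes, and at 4 of these genes every cluster had one, against 13.7%. The third cluster of Runx1 shared the proximal region and was not a separate opening.

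Runx1, a regulator of blood and T cell development, spans chr16:92601466-92826149 on the minus strand. Its proximal region was broad, 2207 bp and 2236 bp, with the summit at -76 and -74 bp from the start. Its distal region was 1369 bp and 1544 bp wide, with the summit 27 and 34 bp past the start. Within the 128.8 kb between both starts, 16 regions in replicate 1 and 19 in replicate 2 lay outside the promoters, or 1.24 and 1.47 per 10 kb. From the proximal start to the gene end, a stretch of 95.9 kb, there were 9 and 7, or 0.939 and 0.730 per 10 kb. A region at the gene end, found in both libraries, had its summit inside the gene in replicate 1 and just past it in replicate 2. It was thus counted in replicate 1 alone. Regions were denser before the proximal start than after it in both libraries.

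Runx1 has a well-studied blood enhancer in the intron after its distal start. At 24.3 kb past that start, chr16:92801494-92802317 had a signal of 11.4 and 10.5 and a -log10 q of 89.2 and 121. At 22.9 kb a small region had a signal of 3.02 and 2.50 and a -log10 q of 6.43 and 5.85. The first was thus at the 81.8th and 78.9th percentile of signal and the second at 7.49 and 4.13 on that scale. Whether either is the known enhancer was not tested, since its coordinates were not used here. The highest signal of the locus was 205 kb past the distal start in intron 6, with 11.6 and 12.4 and a -log10 q of 93.4 and 178. At 4.14 kb past the distal start a region had a -log10 q of 106 and 149 beside a signal of only 5.40 and 5.15.

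Runx1 24.3 kb past the distal start, chr16:92801731-92801931, strand -: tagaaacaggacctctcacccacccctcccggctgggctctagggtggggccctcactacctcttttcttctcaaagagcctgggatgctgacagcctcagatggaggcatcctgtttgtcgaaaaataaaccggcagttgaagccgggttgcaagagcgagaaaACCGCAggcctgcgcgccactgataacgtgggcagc
This run is shown as the stronger opening of the Runx1 intron, with 1 RUNX match and 9 CpG dinucleotides.

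Runx2, known for its part in bone formation and expressed in some T cells, spans chr17:44495987-44814797 on the minus strand. Its distal starts lay between chr17:44814226-44814797 in a stretch without regions of 86.6 kb in replicate 1 and 58.8 kb in replicate 2. The nearest region inside the gene was 36.3 kb away in both libraries, and the nearest upstream was 49.7 kb and 22.0 kb away. The absence is one of listed regions: both lists stop at a -log10 q of 1.00, and weaker opening would not appear. The inside neighbour, chr17:44776695-44777900, was at a start of Supt3, a gene for a subunit of a transcription coactivator, and had the highest -log10 q of the locus, 222 and 323. It cannot be ascribed to Runx2 alone.

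The highest signal of all regions of the 9 genes was also in Runx2, 278.1 kb past the distal start. There chr17:44536501-44537252 had a signal of 17.2 and 17.0, at the 99.0th and 98.8th percentile, and a -log10 q of 145 and 185. It lay in the annotated gene body beyond the end of the reference coding transcript. Other strong regions lay 96.5 kb past the distal start, in intron 4, with a -log10 q of 111 and 164, and 160.1 kb past it, in intron 6, with 68.7 and 110. Leaving out regions that reach within 1 kb of a coding start of Runx2 itself, 5 and 4 regions lay between both starts, or 0.640 and 0.512 per 10 kb. In each library 1 of these was the region at the Supt3 start. In replicate 2 another one, 76.3 kb past the distal start, reached the window of the proximal start and was left out, while its partner in replicate 1 was counted. From the proximal start to the gene end there were 17 and 19, or 0.706 and 0.789 per 10 kb.

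Runx3, which in T cells is best known for the CD8 lineage and T helper 1 programmes, spans chr4:135120652-135177990. Its distal region, chr4:135119964-135120679 in replicate 1, was 716 bp wide there and 1129 bp in replicate 2, with summits at -159 and -163 bp. The proximal region was wider, 1893 bp and 1905 bp, with summits 24 and 20 bp past the start. A region 8.36 kb past the distal start matched the distal promoter in signal, with 14.0 and 14.6, and had a -log10 q of 76.6 and 112. In intron 3, 38.2 kb past the distal start, a region had a signal of 6.06 and 5.74 and a -log10 q of 88.2 and 112. The remaining replicated regions were weaker by -log10 q, at 10.4 to 31.2 over both libraries. Runx3 covered the shortest locus of the 3 RUNX genes, 77.3 kb, and 12.5% of it lay in regions in both libraries, against 8.20% and 9.33% for Runx1 and 5.13% and 5.75% for Runx2.

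Cbfb, which encodes the non-DNA-binding subunit of the RUNX complex, had 4 regions in each library, all replicated. Its promoter at chr8:105170045-105171955 had a signal of 9.84 and 9.07 and a -log10 q of 159 and 217. An intron 3 region 16.1 kb past the start had a signal of 9.20 and 9.80 and a -log10 q of 30.5 and 49.9. A region just past the gene end had 4.54 and 6.00. The fourth, with a signal of 14.2 and 13.3, was at the promoter of the neighbour D230025D16Rik. Leaving out the neighbour's promoter, Cbfb had 1 promoter region and a pair of others.

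Ets1, a factor of T cell quiescence and differentiation, lies at chr9:32636221-32757820 and had the most replicated regions of the 9 genes in the lists as deposited, though not among the 50000 entries of highest signal. Its promoter, chr9:32694972-32696477, had a signal of 7.98 and 7.93 and a -log10 q of 164 and 240. The strongest region by both values lay at -34.2 kb from the coding start, chr9:32661133-32662215, with a signal of 13.8 and 15.3 and a -log10 q of 198 and 353. It was within the annotated gene body and ahead of all coding starts. From the coding start to the gene end, 60.8 kb held 18 and 19 regions, or 2.96 and 3.13 per 10 kb. The 68.8 kb ahead of the start held 8 and 8, or 1.16 per 10 kb. Regions made up 15.3% and 17.5% of the Ets1 locus, the highest share of the 9 loci in both libraries.
Ets1 promoter, chr9:32695900-32696021, strand +: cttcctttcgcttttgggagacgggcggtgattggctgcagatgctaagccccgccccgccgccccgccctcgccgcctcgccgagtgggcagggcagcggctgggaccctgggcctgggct
This run ahead of the Ets1 start had 12 CpG in 122 bases at 73.0% GC and no RUNX or ETS match.

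Within the body the median signal was 2.74 and 2.63, and the median -log10 q was 17.4 and 26.3. Ahead of the start the median signal was 6.24 and 5.76, with a median -log10 q of 18.7 and 25.3. Body regions thus had lower signal at about the same -log10 q. A region at 49.3 kb past the start had a -log10 q of 172 and 266 with a signal of 5.62 and 5.65. One at 27.2 kb had 162 and 224 with 7.06 and 6.67. At 47.8 kb the values were 85.8 and 126 with 4.12 and 4.05. All 3, in introns 1 and 6, were below the promoter by signal, and the one at 49.3 kb exceeded it by -log10 q.

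To count this, regions were marked where the -log10 q percentile was at least 30 points above the signal percentile, a limit chosen after the values were seen. Over all regions 5.05% in replicate 1 and 4.45% in replicate 2 were marked. At Ets1, 18 of 29 (62.1%) and 17 of 30 (56.7%) were marked, of which 16 in each library were between the coding start and the gene end. Among genes with at least 10 regions, Ets1 ranked 7 of 1123 and 6 of 1456 by this share. Runx1 had 5 in each library, all from its distal start to 11.2 kb past it. Elf1 had 5 and 4, all 38.6 to 56.5 kb past its first start. Runx3 had 2 and 1, Fli1 1 and 1, and Runx2, Cbfb, Etv6 and Gabpa had 0. Without Ets1, the loci had 13 of 128 (10.2%) and 11 of 141 (7.80%). How both values were computed was not stated, and the cause of the pattern was not tested.

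**Figure D4:**
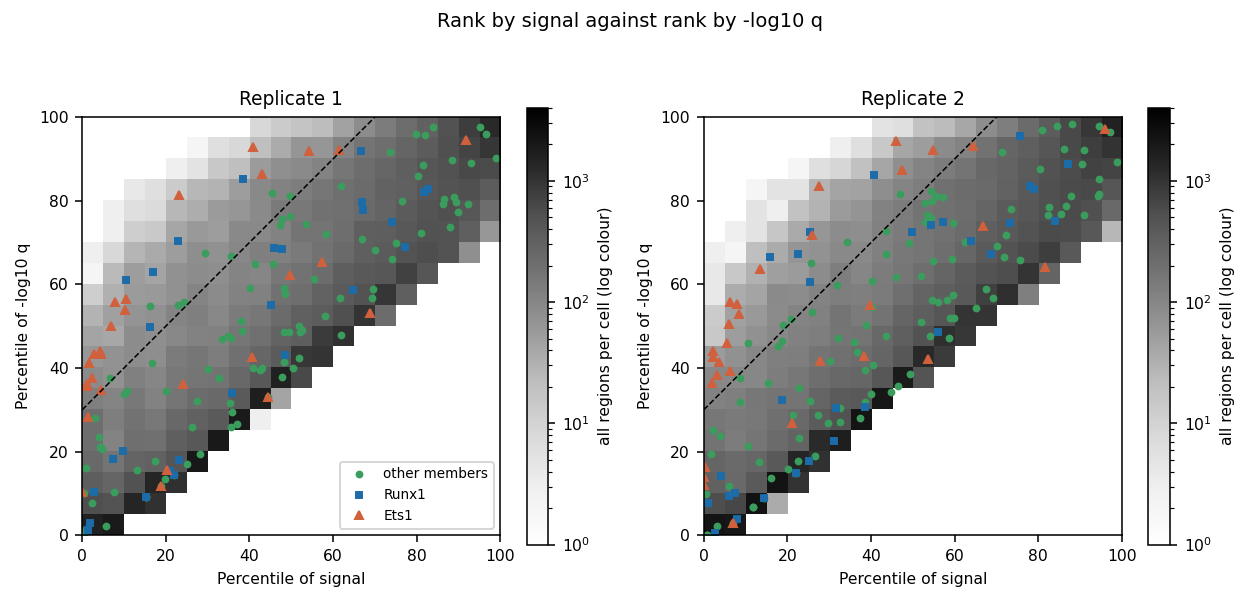
Percentile of -log10 q against percentile of signal for all regions (grey cells, log colour) and for regions of Ets1 (orange triangles), Runx1 (blue squares) and the other 7 genes (green), for each replicate. Points above the dashed line have a -log10 q percentile at least 30 points above that of signal, and 18 and 17 of the Ets1 regions do.

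Fli1, an ETS gene of blood and endothelial cells, lies next to Ets1 on chromosome 9, at chr9:32422204-32542861 on the minus strand. Between both genes were 93.4 kb with 10 regions in each library, of which 8 were outside both loci. Fli1 had the weakest promoter of the 9 genes. At its first start the region had a signal of 2.75 and 2.82 and a -log10 q of 7.48 and 12.6, with the summit 423 bp into the gene in both libraries. At the second start the signal was 5.69 and 5.36 and the -log10 q 39.1 and 53.6, with summits 771 and 1219 bp past it. No region covered either start itself.

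Stronger Fli1 regions were away from the starts. At -6.86 kb a region had a signal of 12.5 and 12.6 and a -log10 q of 81.2 and 109. At 104.8 kb, in intron 5, the signal was 10.4 and 10.3 and the -log10 q 79.5 and 126. At 121.9 kb, past the gene end, the signal was 13.2 and 11.2 and the -log10 q 78.2 and 85.0. At 62.2 kb, in intron 1, the signal was 12.4 and 12.3. All 4 exceeded both promoter regions of Fli1 by both values in both libraries.

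Elf1, an ETS factor of lymphoid cells, lies at chr14:79481194-79582494. Its first start had a signal of 11.0 and 10.9 and a -log10 q of 220 and 341, in a region that also covers the start of Wbp4. Its second start, 34.5 kb further on, had 6.53 and 6.93 and a -log10 q of 66.1 and 107. The strongest region of the locus, with a signal of 15.0 and 14.6 and a -log10 q of 263 and 384, was at the promoter of Sugt1 in the flank. The regions of Elf1 itself lay mainly in introns, 17 in replicate 1 and 19 in replicate 2.

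Etv6, a repressor of the ETS family needed for blood stem cells, lies at chr6:134035700-134270158. Its promoter had a signal of 11.4 and 12.6 and a -log10 q of 219 and 412. An intron 1 region at 12.4 kb had a signal of 11.3 and 12.1 and a -log10 q of 131 and 229. An intron 6 region at 216.5 kb had the highest signal of the locus, 12.9 and 13.5, with a -log10 q of 141 and 226. No region of the Etv6 locus was at another gene's promoter, and 23 and 25 of its regions were in introns.

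Gabpa encodes the DNA-binding subunit of GABP, a regulator of housekeeping and mitochondrial genes, and had the plainest locus, at chr16:84834925-84863779. Its sole region, chr16:84834446-84836355, had a signal of 11.9 and 11.7 and a -log10 q of 260 and 383, and also covers the start of Atp5j, a gene for a subunit of mitochondrial ATP synthase. It was 1910 bp and 1931 bp wide with the summit 63 bp past the start in both libraries. No region was found in the following 37.4 kb of the locus. Of the promoter regions of the 9 genes, that of Gabpa had the highest -log10 q in replicate 1 and that of Etv6 in replicate 2.

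Other genes of both families were taken from a list. Of 21 other ETS genes, 17 (81.0%) had a promoter region in both replicates, against 63.3% of all genes. The list's median ratio to the length class was 1.53, with 15 of 21 above 1, against 0.849 and 45.9% over all genes. Elk3 led with 14 replicated regions, followed by Erg with 12, and Etv1, Elf2 and Elf4 had 8 each. Fev, Spic and Spdef had no promoter region in either library, and Ehf had one in replicate 1 alone. These 4 are known from neurons, macrophages and epithelia. However, Elf3, Elf5 and Etv2 had a promoter region in both libraries, and the Fev locus held 4 replicated regions away from its promoter. Whether cell type accounts for the split was not tested. Spi1 and Spib, which are known for myeloid and B cells, each had a promoter region in both libraries and 3 replicated regions. Elk3, with 14, was thus below Elf1 with 18 and above Runx3 with 7.

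Of 15 listed partners of RUNX and GABP, 14 matched a symbol, the name Tle5 having none beside its older name Aes. A promoter region was in both replicates at 13 of 14 (92.9%), against 63.3% of all genes, and Tle2 had one in replicate 2 alone. Kat6a, a histone acetyltransferase, and Tle4, a corepressor, had 9 replicated regions each and Tle1, also a corepressor, had 8. Gabpb1 and Gabpb2, the genes of the partner subunit of GABPA, had 4 each. Runx1t1 had 1, a ratio of 0.135. The list's median ratio was 1.38, against 0.849 over all genes.

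**Figure D5:**
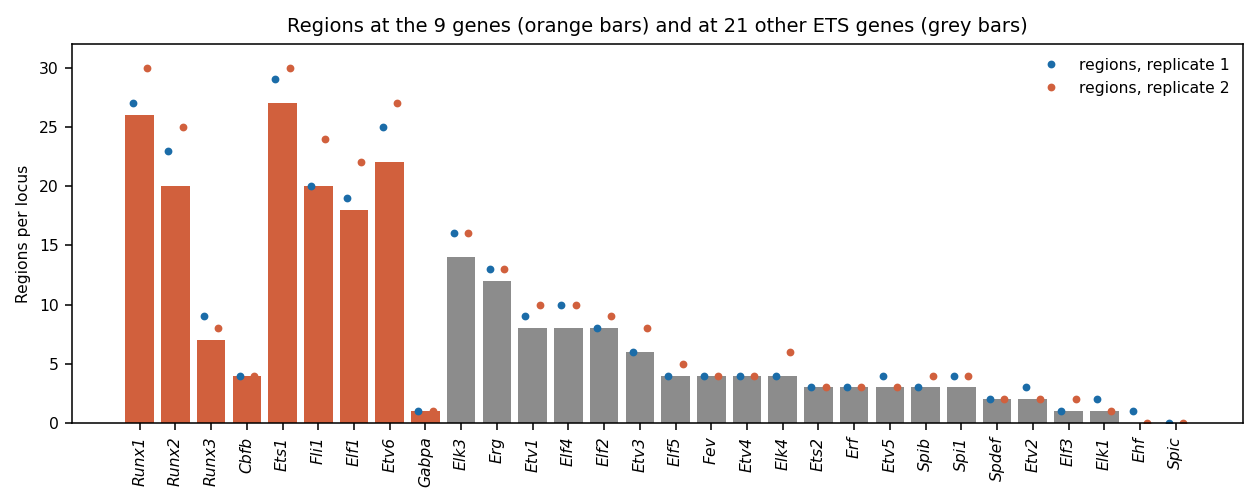
Replicated regions per locus (bars) and regions in each library (points) for the 9 genes (orange bars) and 21 other ETS genes (grey bars). Bars run from 27 at Ets1 to 1 at Gabpa among the 9, and from 14 at Elk3 to 0 at Ehf and Spic among the others.

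The letters near the summits of distal regions, those away from promoters, were then read. The 4 runs below are from distal regions with 3 RUNX and ETS matches, the most of any in replicate 1; another such region, past the end of Cbfb, had a lower -log10 q. Capitals mark matches as before.
Runx2 278.1 kb past the distal start, chr17:44536647-44536847, strand -: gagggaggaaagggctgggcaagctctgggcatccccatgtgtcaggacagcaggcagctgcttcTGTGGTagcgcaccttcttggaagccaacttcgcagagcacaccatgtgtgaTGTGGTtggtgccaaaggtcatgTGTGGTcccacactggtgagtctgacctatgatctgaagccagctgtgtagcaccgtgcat
Etv6 238.4 kb past the start, chr6:134273988-134274188, strand +: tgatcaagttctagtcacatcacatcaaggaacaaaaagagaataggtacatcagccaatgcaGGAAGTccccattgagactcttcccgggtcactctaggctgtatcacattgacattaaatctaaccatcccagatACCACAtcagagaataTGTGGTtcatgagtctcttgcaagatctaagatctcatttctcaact
Runx1 7.4 kb past the distal start, chr16:92818653-92818853, strand -: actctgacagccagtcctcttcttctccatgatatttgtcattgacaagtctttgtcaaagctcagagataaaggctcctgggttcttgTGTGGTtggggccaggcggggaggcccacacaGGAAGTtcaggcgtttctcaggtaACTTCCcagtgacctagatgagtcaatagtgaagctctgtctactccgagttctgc
Elf1 22.6 kb past the first start, chr14:79503739-79503939, strand +: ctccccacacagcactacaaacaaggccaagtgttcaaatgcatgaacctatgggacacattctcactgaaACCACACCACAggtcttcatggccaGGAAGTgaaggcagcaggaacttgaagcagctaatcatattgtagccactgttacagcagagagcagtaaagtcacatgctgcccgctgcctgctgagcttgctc
The Runx2 region, which had the highest signal of the 9 loci, held 3 RUNX matches and 0 ETS matches. The Etv6 and Elf1 runs each held 2 RUNX matches and 1 ETS match, and those of Elf1 share a base. The Runx1 run held 1 RUNX match and 2 ETS matches.

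In the distal regions of the 9 genes, RUNX matches were more common than in all distal regions in replicate 1 and less common in replicate 2. ETS matches were less common in both libraries, and no test was made. A RUNX match lay within 100 bp of the summit in 42 of 141 regions (29.8%) in replicate 1 and 37 of 154 (24.0%) in replicate 2, against 25.3% and 25.2% of all distal regions. An ETS match was in 24 of 141 (17.0%) and 33 of 154 (21.4%), against 23.2% and 22.6%. The AP-1 letters TGANTCA, of another family, were in 26.2% and 26.6%, against 21.9% and 23.0%. At promoters an ETS match was in 7 of 16 regions (43.8%) and 8 of 17 (47.1%), against 32.1% and 31.5%, and a RUNX match in 12.5% and 17.6%, against 15.8% and 16.1%. Among 32851 RefSeq promoters of 300 bases on GRCm38, 22.4% held a RUNX match and 32.1% an ETS match. Those windows are longer than the ones around summits and include promoters without a region, so the shares are not directly comparable.

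Regions seen in 1 library alone were 11 in replicate 1 and 25 in replicate 2, and they were weak. Their median signal was 2.86 and 3.17, against 5.77 and 5.66 for shared regions, and their median -log10 q was 4.26 and 6.19 against 25.0 and 39.1. The region with the highest -log10 q among them was in Etv6 at 120.8 kb, in replicate 2, with 26.1. Runx2 and Etv6 had the most, 3 in replicate 1 and 5 in replicate 2 at each gene. Cbfb and Gabpa had none. Among the 145 pairs matched between libraries, the -log10 q percentile differed by a median of 4.66 points and by over 20 points in 3. The largest gaps were in Runx2 at 76.7 kb, from 33.7 to 59.9, in Etv6 at 203.1 kb, from 11.9 to 35.8, and in Runx2 at 244.9 kb, from 17.9 to 39.5. Next were Ets1 at 54.0 kb, from 36.1 to 55.9, and Cbfb at 47.5 kb, from 19.5 to 38.6. In all 5 the percentile was higher in replicate 2. The lists differ in length and the depth is unknown, so such gaps cannot be read as changes in opening. Whether opening differed was not tested.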

How the data were processed

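The authors deposited 1 list of accessible regions per library in narrowPeak form on mm10, made from that library's own alignments per the deposited text files. The aligner, peak caller, their versions and any transposase offset were not given in the sources used here. The deposited signal has no stated scale, and the deposited -log10 p was not used. The authors' -log10 q and signal served to rank regions within a list. The deposited score was not used. Alignments and signal tracks were not used here.

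Genes, transcripts and starts came from GENCODE M21 on GRCm38.p6. An overlap of 1 bp or more made regions of both libraries shared. A promoter was 1 kb to either side of any start of a protein-coding transcript. RUNX starts were called distal or proximal from the first residues of the translated transcripts. Genes were placed in 10 classes of locus length. Letters were sought within 100 bp of the summit. RefSeq promoters ran from 250 bases before to 50 after the start, on GRCm38. The computations used Python 3.11.15 with pandas 2.3.3 and numpy 2.4.6, and the counting was tested on simulated data.

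The members and lists were chosen with earlier results of these data known. The rule for names took the 9 genes, the top 3 of each other list with ties, genes of those lists with no promoter region, neighbours with a promoter in a locus, regions at starts, the strongest region per gene by either value, Runx1 regions 20 to 26 kb past the distal start, and the 5 largest rank gaps. Other genes and regions, and the Runx1 24.3 kb sequence, were named after their values were seen. Alternatives varied the list threshold and length, the overlap, the locus, the promoter and motif windows, the length classes, the starts used and the replicates.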

Additional observations from a re-analysis of the deposited data

How the results depend on the processing

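All 9 genes kept a promoter region in both replicates, or in the remaining one, under every alternative tried: a -log10 q of at least 5, the 50000 strongest entries by -log10 q or by signal, an overlap of at least 50%, each replicate alone, promoter windows of 250 bp, and basic transcripts. Of the 6 RUNX promoters 5 stayed open under each of these except the 50000 strongest by signal, which lost the Runx1 distal promoter and left 4. Replicated regions numbered 86 with the 50000 strongest by signal and 113 with those by -log10 q, against 145. With the former, Ets1 fell from 27 to 10, Runx1 from 26 to 13, Etv6 from 22 to 16, Runx2 from 20 to 16, Fli1 from 20 to 12, Elf1 from 18 to 8 and Runx3 from 7 to 6, with Cbfb at 4 and Gabpa at 1, so Etv6 and Runx2 came first in place of Ets1. The median ratio to the length class, 2.70, was 3.06 at a -log10 q of at least 5, 2.98 and 2.32 with the strongest by -log10 q and by signal, 2.91 at 50% overlap, 2.95 over the gene body alone and 2.39 with 50 kb to either side. Leaving out a replicate gave 2.70 to 2.84. A ratio above 1 was held by 7 or 8 of the 9 genes in every setting, and Ets1 ranged from 1.95 to 4.96. In windows of 250 bp around the summit, 35.6% of distal regions held an ETS match and 43.5% a RUNX match, against 19.2% and 26.9% as means over both libraries at 100 bp; a wider window holds more letters. The cause of the other shifts was not tested. No paired analysis was possible because there was 1 group. Depth is unknown, so an absent region means none was listed.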
